A study of Mus musculus with 4 samples.

Results

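Nitric oxide synthase 2 (Nos2) was described together with the genes that make, spend and transport its substrate L-arginine and the genes that make its cofactor tetrahydrobiopterin (BH4), 10 genes in all among the 27179 genes of the count table. The 10 genes are Nos2, Ass1, Asl, Arg1, Arg2, Slc7a2, Gch1, Pts, Spr and Odc1, found by symbol through their NCBI gene identifiers. The list was selected on gene function with earlier results of these 4 libraries known, the changes of Nos2 among them, so the values below are a description and no p-value is given for a member. The cells were MC38, a mouse colon carcinoma line, kept in 20% oxygen (normoxia) or 1.5% oxygen (hypoxia), each without and with IFN-γ. The 4 conditions were therefore untreated cells under normoxia, IFN-γ-treated cells under normoxia, untreated cells under hypoxia and IFN-γ-treated cells under hypoxia. The study's methods give 5 ng/mL of IFN-γ for 24 h as the treatment in most experiments and do not give the time under hypoxia. Each condition had 1 library from 1 biological sample, so no spread between replicates can be given and differences between conditions cannot be told apart from differences between cultures.

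Inducible nitric oxide synthase, the product of Nos2, turns L-arginine into nitric oxide and L-citrulline and works only with BH4 bound. Gch1, Pts and Spr encode the enzymes that make BH4 from GTP in sequence. Ass1 and Asl turn citrulline back into arginine, arginases (Arg1, Arg2) split arginine into ornithine and urea, Odc1 turns ornithine into putrescine, the start of the polyamines, and Slc7a2 encodes CAT2, a cationic amino acid transporter. In macrophages, Nos2 is a classical target of IFN-γ and of the hypoxia-inducible factors, and Arg1 is known as its competitor for arginine.

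The libraries held 34302971 to 34537939 counted reads, and 3 counts corresponded to 0.0866 to 0.0876 CPM, the usual unit of counts scaled by library size (here by the trimmed mean of M-values). Levels are given as CPM, and changes between 2 libraries as log2 ratios of CPM with 0.5 counts added, with an exact 95% interval that covers counting error only. Changes fitted over all 4 libraries came from an additive model (oxygen plus IFN-γ) in edgeR over 13580 genes, in which the spread is the departure from additivity with 1 residual degree of freedom per gene and not a spread between cultures. Markers of an epithelial cell were scarce for a line labelled as colon cancer. Of 7 epithelial markers, Cdh1 and Cdx2 had 0 counts in all 4 libraries, and Epcam and Krt18 had at most 2. Krt8 had 48 to 90 counts, Vil1 7 to 17 and Krt19 0 to 18. The summed level of the 7 was 1.84 to 2.92 CPM, most of it Krt8, while Vim, a mesenchymal intermediate filament, had 74838 to 81307 counts. Of 10 macrophage and myeloid markers, Adgre1, Itgam and Cx3cr1 had 0 counts in all 4 libraries, 7 had under 25 counts in every library, and the summed level was 23.97 to 28.27 CPM. Most of that sum was Cd14, with 538 to 611 counts, and Cd68 had 170 to 236 and Lyz2 69 to 96.

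Nos2 had its lowest level in untreated normoxic cells and its highest in cells given both stimuli. It lies at chr11:78920787-78960226 (GRCm38). Nos2 was counted 40 times in untreated normoxic cells, 292 times with IFN-γ under normoxia, 184 times in untreated hypoxic cells and 1099 times with IFN-γ under hypoxia. These counts correspond to 1.155, 8.516, 5.324 and 32.08 CPM. Each stimulus alone gave a level between those extremes, and the level with both stimuli was far above either. The summed macrophage and myeloid markers, mostly Cd14, were 24.95, 26.42, 28.27 and 23.97 CPM in the same libraries. Whether any Nos2 transcripts came from such cells was not tested. In bulk RNA, more cells with Nos2 transcripts and more transcripts per cell cannot be told apart.

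**Figure D1:**
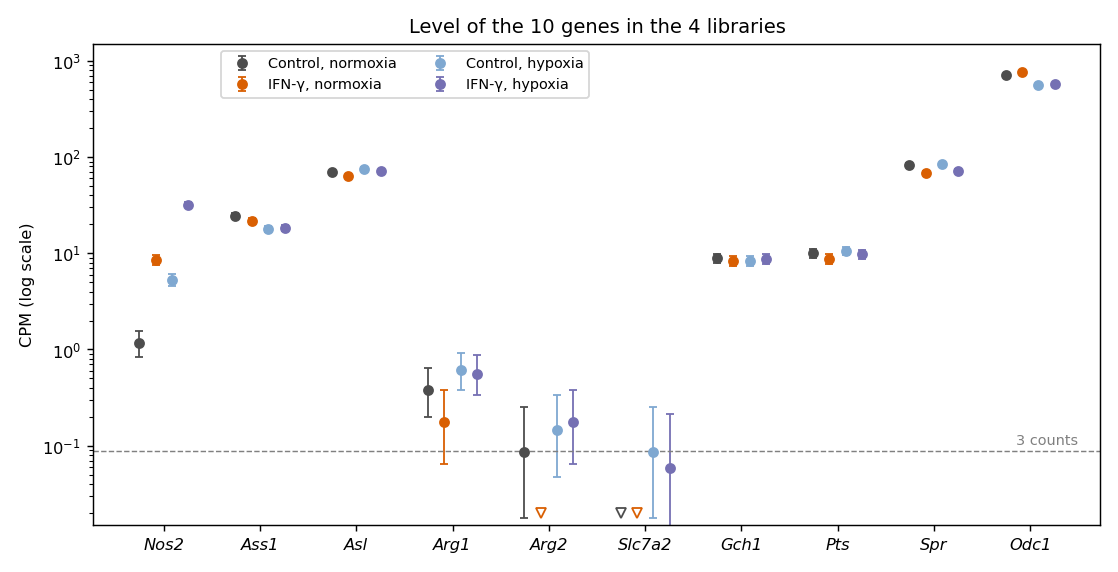
Level of each of the 10 genes (CPM, log axis) in the 4 libraries, with exact 95% Poisson intervals that cover counting error only; open triangles mark 0 counts and the dashed line marks 3 counts. Nos2 spans 1.155 to 32.08 CPM, while Odc1, Asl, Spr, Ass1, Gch1 and Pts each stay within a 1.38-fold range.

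Under normoxia, Nos2 was 7.29-fold higher with IFN-γ (log2 2.87, 95% interval 2.40 to 3.40). Under hypoxia, the same comparison gave 6.01-fold (log2 2.59, 2.36 to 2.82). Hypoxia alone gave 4.56-fold (log2 2.19, 1.70 to 2.74), and hypoxia in IFN-γ-treated cells 3.76-fold (log2 1.91, 1.73 to 2.10). All 4 intervals lay above 0, and the intervals of the IFN-γ change in both oxygen conditions overlapped.

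With both stimuli Nos2 was 27.4-fold above untreated normoxic cells (log2 4.78, 4.34 to 5.29). The sum of the single log2 changes was 5.06, a product of 33.3-fold. The IFN-γ change under hypoxia minus that under normoxia was −0.28 with a 95% counting interval of −0.80 to 0.25, which was not tested because 1 library per condition leaves no test of an interaction. For the 11677 genes whose lowest library had 30 counts or more, the central 95% of this difference ran from −0.487 to 0.52. The difference of Nos2 lay within that range. Ass1 (0.22) and Odc1 (−0.08) had differences whose counting interval left out 0, as did 32.49% of those genes.

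**Figure D2:**
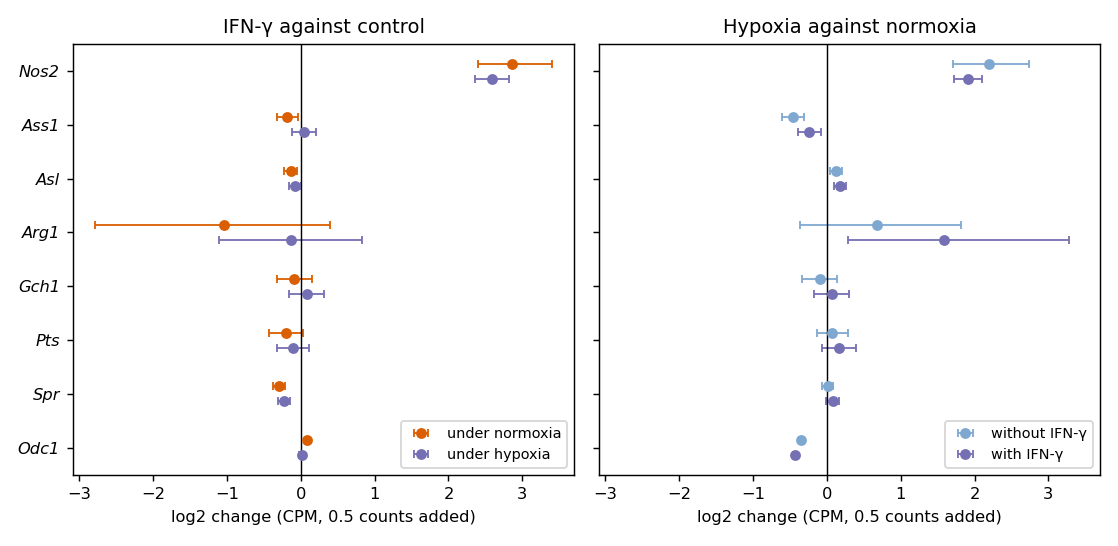
log2 change of the 8 genes with enough counts for the model in each pair of libraries, IFN-γ against control on the left and hypoxia against normoxia on the right, with 95% intervals of counting error. Nos2 lies between 1.91 and 2.87 in all 4 pairs, and Arg1 has the widest intervals, with 6 to 21 counts per library.

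Nos2 is one of 3 nitric oxide synthase genes, and the levels of the other 2 are given beside it. Nos1 (neuronal) gave 0.816, 0.631, 0.775 and 0.686 CPM per kilobase of its longest annotated transcript in untreated normoxia, IFN-γ normoxia, untreated hypoxia and IFN-γ hypoxia. Nos3 (endothelial) gave 0.370, 0.346, 0.497 and 0.473 on the same scale. Nos2 gave 0.276, 2.03, 1.27 and 7.65. In untreated normoxic cells, Nos2 was therefore below Nos1, and its counting interval (0.197 to 0.375) overlapped that of Nos3 (0.277 to 0.485). With IFN-γ, Nos2 was above Nos1 and Nos3 in both oxygen conditions. In untreated hypoxic cells the order of Nos1 and Nos2 depends on the transcript: by the median transcript length, Nos1 was 1.787 and Nos2 1.553. Neither Nos1 nor Nos3 passed the test for a change with either stimulus.

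**Figure D3:**
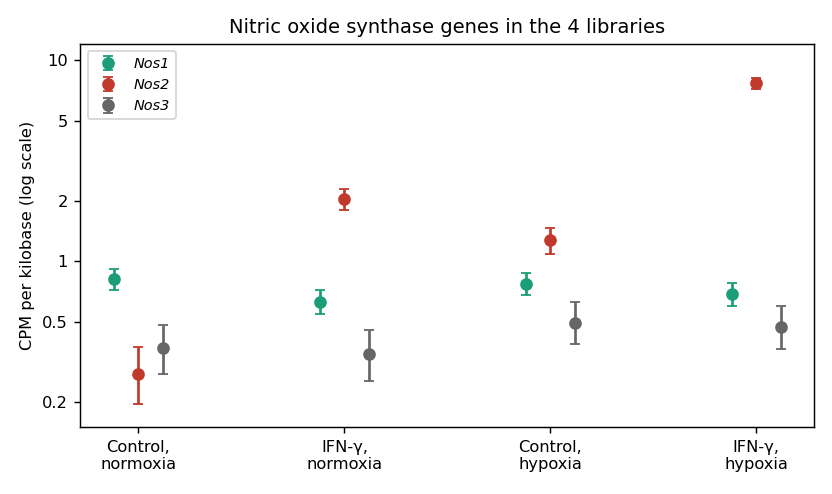
CPM per kilobase of the longest transcript (log axis) of Nos1, Nos2 and Nos3 in the 4 libraries, with exact 95% Poisson intervals of counting error. Nos2 goes from 0.276 to 7.65, while Nos1 stays between 0.631 and 0.816 and Nos3 between 0.346 and 0.497.

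In the fit over all 4 libraries, the Nos2 change was 2.67 (SE 0.138) on the log2 scale for IFN-γ and 1.98 (SE 0.135) for hypoxia. When the 11489 genes averaging 50 counts or more were ordered by fitted change, Nos2 ranked 39 from the top for IFN-γ and 5 for hypoxia. Over all 13580 tested genes it ranked 69 and 25. The fit called 128 of the 13580 tested genes raised by both stimuli at an adjusted p under 0.05 for each (0.943%), and 5 of them, 0.0368% of all tested genes, had a fitted log2 change of at least 1 for each. Nos2 was selected with these changes known, so nothing is read from its place among them. The other 4 were named after their values were seen. Misp had 10, 134, 31 and 256 counts in the order above, Csta2 7, 88, 28 and 162, Ifi209 18, 44, 49 and 104, and Prdm1, a transcriptional repressor, 2, 12, 12 and 38. Misp and Csta2 had larger IFN-γ changes than Nos2 (3.28 and 2.89) and smaller hypoxia changes (1.06 and 1.10).

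**Figure D4:**
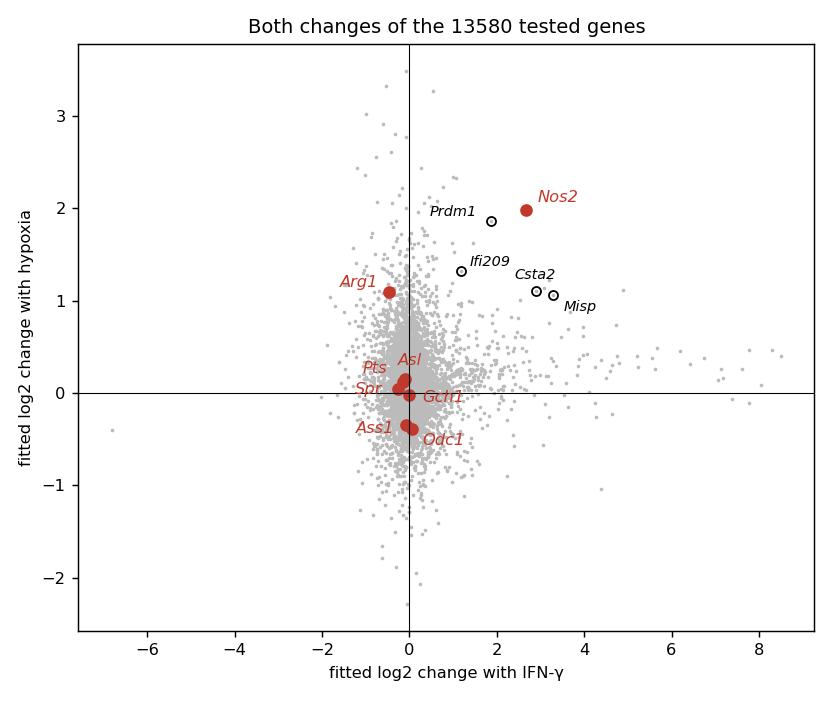
Fitted log2 change with IFN-γ (x axis) against that with hypoxia (y axis) for each of the 13580 tested genes (grey), with the 8 tested members in red and the other genes raised at least 2-fold by both stimuli as open circles. Nos2 lies at 2.67 and 1.98, apart from the other members, which lie between −0.47 and 0.05 for IFN-γ.

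The 5 genes whose pattern over the 4 libraries was nearest to that of Nos2, by root mean square distance of mean-centred log2 CPM over 11488 genes, were Csta2 (0.41), Misp (0.517), Tmem229b (0.667), A530040E14Rik (0.691) and Apol10b (0.713). Each of them had its highest count with both stimuli, as Nos2 did, and each had a smaller hypoxia change in both pairs of libraries than Nos2. In Tmem229b, for example, the counts were 25, 212, 49 and 298, with hypoxia changes of 0.96 without IFN-γ and 0.49 with it. The distance rests on 4 libraries only.

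None of the 3 genes of BH4 synthesis was higher with IFN-γ beyond counting error in either oxygen condition. Gch1, GTP cyclohydrolase 1 and the first enzyme of the pathway, had 308, 287, 287 and 300 counts (8.895, 8.371, 8.304 and 8.758 CPM) in untreated normoxia, IFN-γ normoxia, untreated hypoxia and IFN-γ hypoxia. The IFN-γ changes were −0.09 (−0.32 to 0.15) and 0.08 (−0.16 to 0.32) under normoxia and hypoxia. These intervals limit a higher level with IFN-γ to 1.11-fold and 1.24-fold, counting error only.

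Pts, which encodes the next enzyme, had 348, 300, 366 and 336 counts. Its IFN-γ changes were −0.20 (−0.43 to 0.03) and −0.11 (−0.33 to 0.11), and its hypoxia changes 0.08 (−0.14 to 0.29) and 0.16 (−0.06 to 0.39), all with 0 inside the interval. Spr, sepiapterin reductase and the last enzyme, had 2894, 2338, 2909 and 2463 counts. Both IFN-γ libraries were below both untreated libraries, with changes of −0.29 (−0.37 to −0.21) and −0.23 (−0.31 to −0.15), and hypoxia gave 0.01 (−0.06 to 0.08) and 0.08 (−0.01 to 0.16). In percent, the level of Spr was −18.4% and −14.6% from the untreated library.

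The genes that rebuild arginine from citrulline spanned 1.38-fold (Ass1) and 1.20-fold (Asl) over the 4 libraries. Ass1, argininosuccinate synthase, had 855, 746, 620 and 631 counts (24.69, 21.76, 17.94 and 18.42 CPM). Both hypoxic libraries were below both normoxic ones, with hypoxia changes of −0.46 (−0.61 to −0.31) without IFN-γ and −0.24 (−0.40 to −0.09) with it. Asl, argininosuccinate lyase, had 2406, 2162, 2609 and 2445 counts. Its IFN-γ changes were −0.14 (−0.22 to −0.06) and −0.08 (−0.16 to −0.0005), and its hypoxia changes 0.12 (0.04 to 0.20) and 0.18 (0.09 to 0.26), so that Ass1 and Asl lay on opposite sides of 0 under hypoxia.

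The value of Ass1 is uncertain because its transcripts share sequence with a copy. Of its 31-base words, 43.1% also occur in transcripts of Gm5424, which had 594, 402, 430 and 414 counts. With both rows summed, the IFN-γ changes were −0.32 under normoxia and 0.01 under hypoxia, and the hypoxia changes −0.46 without IFN-γ and −0.13 with it. Nos2, Arg1 and Arg2 shared no 31-base word with another gene.

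Ass1 and Odc1 were the 2 genes of the list with lower counts in both hypoxic libraries, and the bases before their start are shown because the hypoxia-inducible factors bind a short core motif, ACGTG or GCGTG. The sequences are from RefSeq on GRCm38.p6 and run 5′ to 3′ on the plus strand, with matches to the motifs searched in capitals. Ass1 is shown for chr2:31470020-31470269 and Odc1 for chr12:17544623-17544807, which ends before the annotated gene.
Ass1: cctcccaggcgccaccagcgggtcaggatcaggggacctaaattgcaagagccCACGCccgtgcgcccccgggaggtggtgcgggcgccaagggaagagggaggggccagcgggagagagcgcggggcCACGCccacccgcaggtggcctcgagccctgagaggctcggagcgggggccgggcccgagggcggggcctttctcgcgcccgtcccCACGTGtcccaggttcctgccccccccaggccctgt
Odc1: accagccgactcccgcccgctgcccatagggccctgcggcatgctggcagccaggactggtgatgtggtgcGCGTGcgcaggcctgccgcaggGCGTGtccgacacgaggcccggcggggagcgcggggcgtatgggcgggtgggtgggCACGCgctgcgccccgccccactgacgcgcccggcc
Both strands were searched for 7 motifs: the hypoxia cores ACGTG and also GCGTG, the E-box CACGTG, the motif TTCNNNGAA, the interferon-stimulated response element motif, the amino acid response motif TGATGNAA and the NF-kB motif. Ass1 held CACGTG at position −36 from the start, which overlaps ACGTG on both strands, and GCGTG on the minus strand (CACGC as printed) at −197 and −122. Odc1 held GCGTG at −179, −157 and −101. These positions count back from the end of a 250-base window whose last 65 bases lie inside the annotated gene and are not printed. Among 32851 promoters of 250 bases, 16.57% held ACGTG, 28.16% GCGTG and 6.021% CACGTG, so such matches are common, and they are descriptions and not binding sites. The bases of Ass1 and Odc1 were 75.6% and 80.0% G or C, while these shares are over all promoters. A role of the motifs in the lower counts was not tested. Of the list, 5 genes had a promoter sequence, while Nos2, Asl, Arg1, Arg2 and Slc7a2 had none and were not searched. Among the 5, Gch1 held 1 NF-kB motif match at −10, a motif found in 7.251% of the promoters. Pts and Spr held no match of these 7 motifs. TTCNNNGAA and the interferon-stimulated response element and amino acid response motifs, found in 7.02%, 2.977% and 3.452% of all promoters, matched none of the 5.

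Arginase transcripts were scarce in every library. Arg1 had 13, 6, 21 and 19 counts, at most 0.6076 CPM, and its hypoxia changes were 0.67 (−0.37 to 1.81) without IFN-γ and 1.59 (0.28 to 3.28) with it. Its IFN-γ changes were −1.04 (−2.78 to 0.39) under normoxia and −0.13 (−1.11 to 0.84) under hypoxia, where the intervals contain 0. Arg1 and Nos2 were thus on opposite sides of 0 with IFN-γ and on the same side with hypoxia, with intervals for Arg1 that reach both sides in 3 of the 4 pairs. The 5 genes nearest in pattern to Arg1 over 11489 genes were Baalc (0.11), Porcn (0.157), Dmkn (0.161), Podnl1 (0.18) and Kdm5b (0.189). By Pearson correlation these genes ranked only 98 to 314. Arg1 itself lies under the mean of 50 counts required of the compared genes, so its pattern is loosely set and nothing is read from these names. Arg2, the mitochondrial arginase, had 3, 0, 5 and 6 counts, below the count filter, so no change is given.

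Slc7a2 was at or under 3 counts in every library, with 0 in both normoxic libraries and 3 and 2 under hypoxia. In those normoxic libraries 3 counts, the floor used here, were 0.0866 and 0.0875 CPM. Its relative Slc7a1, which encodes the main cationic amino acid transporter of most cells, gave 42.2, 43.8, 37.1 and 36.9 CPM per kilobase. Slc7a3, another member of the family, gave 0.147, 0.286, 0.137 and 0.223 on the same scale.

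Odc1, ornithine decarboxylase, was the most abundant gene of the list and was lower in both hypoxic libraries. It had 24968, 26243, 19541 and 19498 counts (721.1, 765.4, 565.4 and 569.2 CPM). Hypoxia changes were −0.35 (−0.38 to −0.32) without IFN-γ and −0.43 (−0.45 to −0.40) with it, and the IFN-γ changes 0.09 (0.06 to 0.11) and 0.01 (−0.02 to 0.04). Transcripts of Odc1 shared 31.3% of their 31-base words with other genes, and its value is uncertain to that extent; among its 11 copies that share at least 5% of its words, the 1 with a row had 1 count at most.

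The fit called 1 of the 8 tested members raised by IFN-γ (Nos2) and 1 lowered (Spr), where 4.76% of all tested genes were raised and 1.1% lowered. For hypoxia it called 1 raised (Nos2) and 2 lowered (Ass1, Odc1), where 8.21% of all tested genes were raised and 6.83% lowered. Since the members were selected with these contrasts known, nothing is read from these counts. In the fit of 2 libraries against 2 without the other stimulus, the calls of Nos2 for both stimuli, Spr and Ass1 were lost, and with DESeq2 those of Spr and Ass1; Odc1 was called in all 5 alternative fits. The members' median fitted change was −0.093 for IFN-γ and 0.081 for hypoxia, against −0.0107 and 0.0047 over all tested genes. Arg2 and Slc7a2 did not pass the filter on low counts.

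By single pairs of libraries, members past a log2 change of 1 in either direction are given among the 8 that passed the count filter. Arg2 and Slc7a2 are left out. With IFN-γ under normoxia there were 2 (Nos2 and Arg1) against a background of 4.39% of all tested genes, and with IFN-γ under hypoxia 1 (Nos2) against 3.97%. With hypoxia there was 1 without IFN-γ (Nos2) against 3.53% and 2 with it (Nos2 and Arg1) against 3.46%. With both stimuli against neither there was 1 (Nos2) against 5.15%. Arg1 passed with 6 counts in the IFN-γ library under normoxia, which enters both of its comparisons. With 5 counts added in place of 0.5, its IFN-γ change under normoxia was −0.70 and its hypoxia change with IFN-γ was 1.13.

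Per length, the members spanned a wide range and Nos2 moved up the order. In untreated normoxic cells, CPM per kilobase of the longest annotated transcript was 326.6 for Odc1, 28.8 for Asl, 23.58 for Spr, 14.56 for Ass1, 2.536 for Gch1, 2.387 for Pts, 0.276 for Nos2, 0.254 for Arg1, 0.0607 for Arg2 and 0 for Slc7a2. By counting intervals, Gch1 and Pts, Nos2 and Arg1, Arg1 and Arg2, and Arg2 and Slc7a2 were not separated. With IFN-γ under hypoxia, Nos2 stood 5 in the order at 7.65, below Ass1 at 10.86 and above Gch1 at 2.497 and Pts at 2.329. The places of Asl, Spr, Pts, Gch1, Nos2 and Arg1 depend on the transcript used. By the median transcript length, untreated normoxic Arg1 (0.535) stood above Nos2 (0.337), Spr (74.0) above Asl (50.59) and Pts (17.02) above Gch1 (2.832), and Odc1 was 1088. With the longest coding transcript, chosen after the data were seen, untreated Spr was 67.95 and above Asl, Pts was 9.609 and above Gch1, and Nos2 with both stimuli stood 6.

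The neighbouring pathway genes were described from 6 lists of 99 genes, the members left out, of which 81 passed the count filter. The list of transcription factors known to act at Nos2 also holds Nfkbia, the gene of an NF-kB inhibitor. Of its 13 tested genes, IFN-γ raised 4 (4.76% of all tested genes) and lowered 0, by edgeR with Benjamini-Hochberg adjustment over all genes. The lists were chosen with earlier results of these data known, so nothing is read from this count. Irf1 changed by 2.43 (SE 0.0548), from 3770 and 4422 counts without IFN-γ to 20118 and 23759 with it. Irf9 changed by 0.82 (SE 0.0708) and Cebpb by 0.56. For hypoxia, Irf1 (0.24) and Jun (0.20) were raised and Cebpb (−0.25) was lowered. Of all tested genes, hypoxia raised 8.21% and lowered 6.83%. The list's median fitted change was 0.136 with IFN-γ, against −0.011 over all genes.

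Among genes of polyamine synthesis, Srm, spermidine synthase, was lowered under hypoxia by 0.46 on the log2 scale (SE 0.0558). Mtap, which salvages methionine, and Dohh, which modifies the translation factor eIF5A, were also lowered (−0.24 and −0.19), and Smox, spermine oxidase, was raised by both IFN-γ (0.39) and hypoxia (0.33). Of 16 tested genes, 1 was raised by IFN-γ and 1 raised and 3 lowered by hypoxia, where 8.21% and 6.83% of all tested genes were raised and lowered by hypoxia. Dohh is uncertain, with 46.3% of its words shared. The list built around cationic amino acid transport is wider than its name, with carriers of other amino acids such as Slc7a5, Slc25a12 and Slc25a13. In this list hypoxia lowered 4 of 14 tested genes (6.83% of all tested genes were lowered), and 0 in the fit of 2 libraries against 2. The 4 were Slc7a5 (−0.34), Slc7a1 (−0.22), Slc3a2 (−0.21) and Slc7a6 (−0.21), and the list median was −0.178 for hypoxia against 0.005 over all genes. IFN-γ called 0 of the 14.

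The calls in the other lists follow, and nothing is read from their number. In nitric oxide signaling, IFN-γ raised 1 of 15 tested genes (Prkg2, 0.27) and hypoxia raised 2 (Dynll1, 0.17, and Cyb5r3, 0.15). In the list of BH4 recycling and regulation, IFN-γ called 0 of 7 and hypoxia lowered 1 (Akr1b3, aldose reductase, −0.23). In arginine, ornithine and proline metabolism, IFN-γ raised 1 of 16 (Rars, 0.17), and hypoxia raised Gamt (0.38) and lowered Pycr3 (−0.30). Across the 6 lists, of 81 tested, 7 genes were raised and 1 lowered by IFN-γ (4.76% and 1.1% of all tested genes), and 6 raised and 10 lowered by hypoxia (8.21% and 6.83%). The calls of Srm (hypoxia), Irf1 and Irf9 (IFN-γ) held in all 5 alternative fits, and each other call named from the lists was lost in at least 1 of them.

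**Figure D5:**
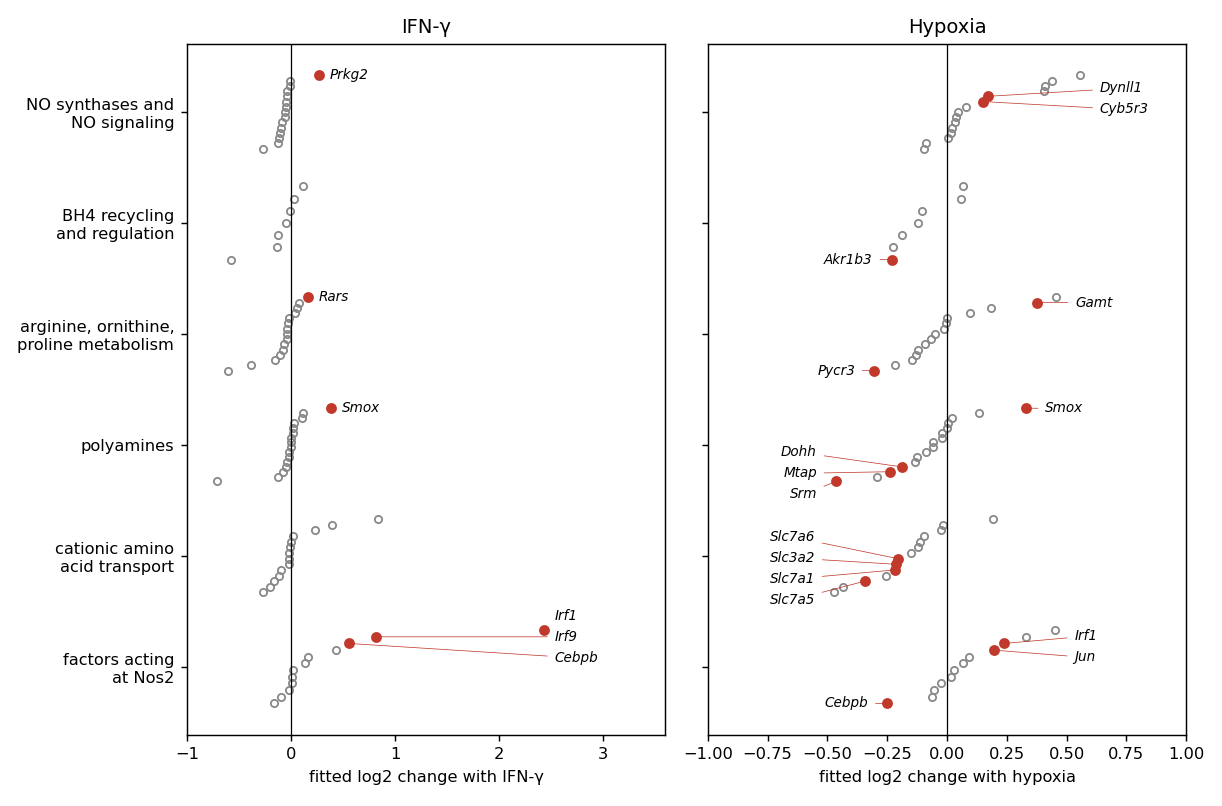
Fitted log2 change with IFN-γ (left) and hypoxia (right) for tested genes of the 6 lists, 1 point per gene, with 2 genes not reported here left out, red where the gene passed an adjusted p of 0.05 in the fit over all genes. Irf1 lies at 2.43 with IFN-γ, and with hypoxia the called transport genes all lie at or below −0.21.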

How the data were processed

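RNA was measured in 4 MC38 libraries, 1 per condition. Per the labels, poly-A RNA was selected and strand-specific libraries were sequenced from both ends on a DNBSEQ instrument. The study aligned reads with HISAT2, and the submitters' processing notes name featureCounts and the build mm10. The authors deposited whole-number read counts per gene, not normalized or filtered, and how they counted reads that match several genes is not given in the sources used here. Changes across all genes were fitted with edgeR 4.0.16 in R 4.3.3 (quasi-likelihood test, additive oxygen and IFN-γ terms, TMM, filterByExpr with a minimum count of 10, Benjamini-Hochberg threshold 0.05). DESeq2 1.42.0 was an alternative. The edgeR fit was also run on simulated additive counts with a spread set near the one it estimated here. That run cannot show whether the calls would hold between cultures. Intervals cover counting error only, and p-values rest on departure from additivity with 1 library per condition. The members and pathway lists were chosen with earlier results of these data known. Named genes were the members, the called list genes (at most 4 per list and direction), isoenzymes, the 5 nearest patterns of members that changed by at least 1, and markers. Transcript lengths and 31-base words came from the GENCODE annotation of GRCm38, gene coordinates from RefSeq, and 0 columns of the table were unused. The values of 2 genes of the pathway lists are not reported here, though the lists' counts include them.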

Additional observations from a re-analysis of the deposited data

Results flagged for a closer look

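Some members had IFN-γ or hypoxia changes on opposite sides of 0 in the pairs of libraries, and these differences were not tested, since each condition had 1 library. For Ass1, the IFN-γ change was −0.1825 under normoxia and 0.0383 under hypoxia, a difference of 0.2208 with a 95% counting interval of 0.0072 to 0.4343, and Ass1 shares sequence with Gm5424. For Gch1, the IFN-γ change was −0.0875 under normoxia and 0.0768 under hypoxia, and the hypoxia change −0.0991 without IFN-γ and 0.0652 with it. Both contrasts of Gch1 give the same difference of 0.1643, with a counting interval of −0.16 to 0.49.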

How the results depend on the processing

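With 1 library per condition, the calls depend on a spread taken from departure from additivity, and counts of 3 or fewer (Slc7a2, Arg2 in part) limit what can be said of low genes. Counts of called genes changed with the test. With the DESeq2 Wald test, genes raised and lowered by IFN-γ were 353 and 16 (against 647 and 149), and by hypoxia 362 and 214 (against 1115 and 927). In a fit of 2 libraries against 2 without the other stimulus as a term, they were 239 and 3 for IFN-γ and 150 and 26 for hypoxia. Genes lowered by IFN-γ were 99 with DESeq2 size factors, 71 without a filter and 74 with at least 10 counts in every library. In the pathway lists, DESeq2 gave 4 raised and 0 lowered by IFN-γ and 1 raised and 6 lowered by hypoxia, the fit of 2 against 2 gave 3, 0, 0 and 1, and no filter gave 3 raised by hypoxia. Of the members, DESeq2 called 0 lowered by IFN-γ and 1 lowered by hypoxia, and the fit of 2 against 2 called 0 raised and 0 lowered by IFN-γ, 0 raised and 1 lowered by hypoxia (Odc1). With at least 10 counts in every library, the share of genes past a log2 change of 1 was 2.114%, 2.192%, 1.482%, 1.607% and 3.175% in the 5 pairs, in the order given above. All 110 alternative values of the members' fitted changes lay within the interval of the main value. Changes near 0 changed sign: that of Spr with hypoxia and no IFN-γ was −0.0014 with total counts in place of TMM (0.01 in the main analysis), and the fitted IFN-γ change of Gch1 was 0.0043 without a filter and 0.0012 with at least 10 counts in every library (−0.0056 in the main analysis). The per-kilobase levels moved with the transcript length in 9 of 20 values, and by Pearson correlation 0 of the 5 nearest patterns of Nos2 or Arg1 were shared. No paired analysis was possible because the labels give no replicate numbers and each condition has 1 library.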
